A study of Mus musculus with 6 samples.

Results

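The CCN family comprises small secreted proteins of the extracellular matrix, and 5 of the 17570 genes listed for these hearts were chosen for description by gene identifier: Ccn1 (formerly Cyr61, Entrez Gene 16007), Ccn2 (Ctgf, 14219), Ccn3 (Nov, 18133), Ccn4 (Wisp1, 22402) and Ccn5 (Wisp2, 22403). The members were chosen when their levels in the KO/TAC and WT/TAC hearts were already known. Their difference between the groups is therefore a description and carries no test, and no other animals were available in which to test it. All 5 passed the filter, an average of 0.5 FPKM or more (fragments per kilobase of transcript, scaled to the size of the library), which left 12520 genes for testing. A further relative, Ccn6 (327743), is no member here. Its listed FPKM were 0, 0.09 and 0 for WT/TAC replicates 1 to 3, and 0.1, 0 and 0.05 for KO/TAC replicates 1 to 3.

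RNA that the study describes as from whole heart was sequenced from 3 wild-type (WT/TAC) and 3 miR-27b-null (KO/TAC) mice. The hearts were taken 8 weeks after transverse aortic constriction (TAC), a surgical narrowing of the aorta that loads the left ventricle with pressure. The mice were adult and of a C57BL/6 background. The KO/TAC mice were homozygous for a short TALEN-made deletion in the gene of miR-27b, present in every cell of the body, so that no cell type was targeted. Both groups had the operation and no sham hearts were analysed, so the values compare genotypes under load and do not show what load itself did.

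CCN proteins are built from modules that resemble an insulin-like growth factor binding protein, a von Willebrand factor type C repeat, a thrombospondin repeat and a C-terminal cystine knot. They are called matricellular because they sit in the matrix without holding it together, and act by binding integrins, proteoglycans, the receptor LRP1 and growth factors such as TGF-β, BMPs and VEGF. In the heart, CCN2 is best known as a TGF-β-induced and YAP-induced protein of fibroblasts and stretched cardiomyocytes, CCN1 as an immediate early gene product, CCN4 as a product of Wnt signalling, and CCN5, which lacks the C-terminal module, as a member that in mice works against hypertrophy and fibrosis.

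The microRNA that was deleted is shown first, with its close relative miR-27a-3p, which the mice still carried. Sequences are from RefSeq (GRCm38.p6), written 5′ to 3′, with the seed (bases 2 to 8, the part that pairs with target mRNAs) in capitals.
miR-27b-3p (chr13:63300760-63300780, plus strand): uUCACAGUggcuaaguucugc
miR-27a-3p (chr8:84208727-84208747, plus strand): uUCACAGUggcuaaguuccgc
Both microRNAs share 1 seed. The study's methods place the deletion in the last bases of the miR-27b-3p line, behind the seed.

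A 3′ UTR that could pair with the whole of this seed holds the letters ACTGTGA. Matches to a part of the seed were not searched. In the GENCODE M21 models on GRCm38, taking for each gene the transcript with the longest coding sequence, Ccn1, Ccn2, Ccn3 and Ccn5 held 0 such matches, in 3′ UTRs of 690, 1067, 1534 and 709 bases. Ccn4, with the longest 3′ UTR of the family at 3747 bases, held 2. These are shown because they are the family's only matches to the whole seed in the transcripts used, with the match in capitals.
Ccn4, UTR position 1434 (chr15:66920877-66920905, plus strand): ctgttcttgacACTGTGAaatatcaattc
Ccn4, UTR position 3500 (chr15:66922943-66922971, plus strand): tctattttcaaACTGTGAttgtgtattta
The match at position 1434 is followed by an A and the other is not. Of 1035 3′ UTRs whose length was within 20% of that of Ccn4, 35.2% held any match and 7.83% held 2 or more. A match of letters is no evidence of binding. Ccn4 was under 1 FPKM in each KO/TAC heart, as described further on.

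Ccn5 has the shortest coding sequence of the family and Ccn4 the longest gene. Each has 5 exons in the model used, and the coding sequences hold 379 codons for Ccn1, 348 for Ccn2, 354 for Ccn3, 367 for Ccn4 and 251 for Ccn5. Ccn1 lies on chromosome 3 (145646976 to 145649981, minus strand), Ccn2 on chromosome 10 (24595442 to 24598683, plus strand) and Ccn5 on chromosome 2 (163820861 to 163833146, plus strand). Ccn3 (54745702 to 54754039) and Ccn4 (66891320 to 66923201) both lie on the plus strand of chromosome 15. The pentamer ATTTA, the core of AU-rich elements that shorten the life of many immediate early mRNAs, occurred 5 times in the 3′ UTR of Ccn1, and 2.91% of 1411 3′ UTRs of like length held as many. Ccn3 held 6, Ccn4 4, Ccn2 2 and Ccn5 0. Of 3′ UTRs of like length, 12.3% held as many or more for Ccn3, 75.5% for Ccn4 and 47.8% for Ccn2.

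Ccn2, the profibrotic member induced by TGF-β and by YAP with TEAD, was the most abundant CCN mRNA in every WT/TAC heart. It stood at 463, 373 and 199.7 FPKM in WT/TAC replicates 1 to 3 and at 35.7, 38.4 and 35.5 FPKM in KO/TAC replicates 1 to 3. The groups did not overlap, and the lowest WT/TAC heart was 5.20 times the highest KO/TAC heart. The KO/TAC hearts lay within 1.08-fold of each other, whereas the WT/TAC hearts spanned 2.32-fold. The group means were 346 ± 134 FPKM in WT/TAC and 36.5 ± 1.63 FPKM in KO/TAC (SD, n = 3 each), a ratio of 9.46. On the log2(FPKM + 0.5) scale the fitted difference of KO/TAC minus WT/TAC was -3.14 (SE 0.29), and 8 of the 12520 genes had a lower value. Ranked by FPKM among all genes, Ccn2 held places 167, 224 and 391 in the WT/TAC hearts and places 1991, 1823 and 2012 in the KO/TAC hearts.

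Ccn1, which signals through integrins and heparan sulphate proteoglycans and is switched on within minutes of growth factor or stretch stimuli, showed no such separation. It stood at 19.5, 98.7 and 58.2 FPKM in WT/TAC replicates 1 to 3 and at 33.2, 40.6 and 37.4 FPKM in KO/TAC replicates 1 to 3. WT/TAC replicate 1 was the lowest of the 6 hearts and the other WT/TAC hearts were the highest, so the groups overlapped. The means were 58.8 ± 39.6 and 37.1 ± 3.70 FPKM (SD, n = 3 each), a ratio of 1.59, and the fitted log2 difference was -0.38 (SE 0.53), smaller than its error. The direction rested on single WT/TAC hearts: the log2 difference was -1.03 without replicate 1 and 0.13 without replicate 2.

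**Figure D1:**
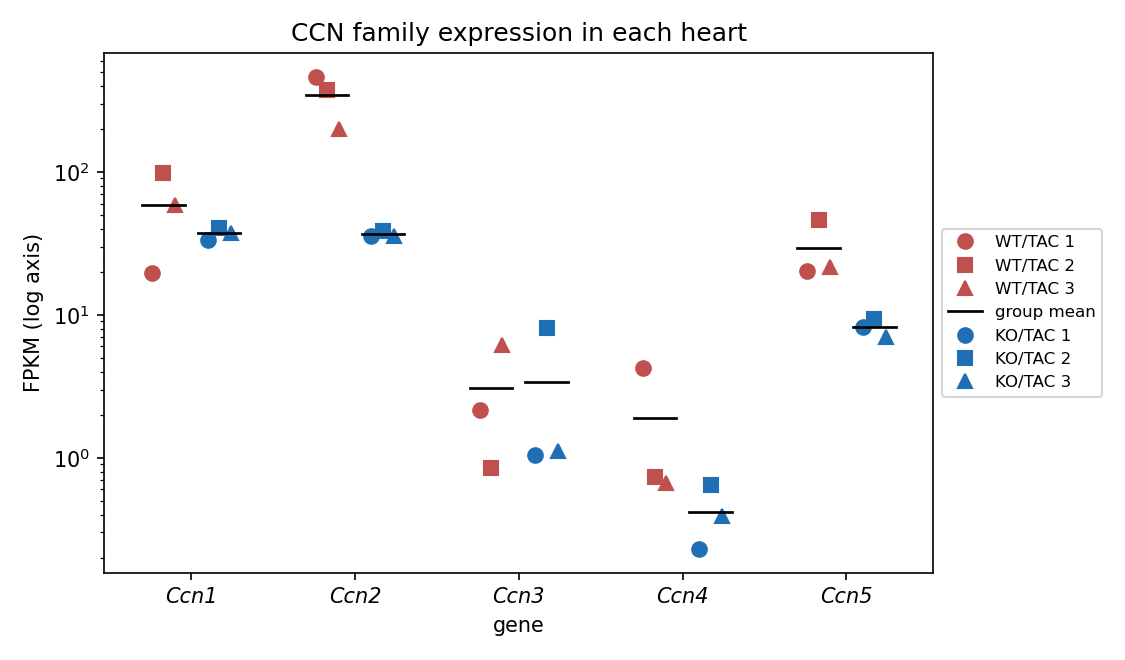
FPKM of the 5 CCN genes (log axis) in each heart, red for WT/TAC and blue for KO/TAC, with the symbol giving the replicate and the bar the group mean of 3 hearts. Ccn2 at 199.7 to 463 FPKM against 35.5 to 38.4 and Ccn5 at 20.1 to 45.8 FPKM against 6.95 to 9.30 leave a gap between the groups, whereas Ccn1 and Ccn3 overlap.

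Ccn5, the member without the C-terminal module, was the other gene with a wide gap. It stood at 20.1, 45.8 and 21.5 FPKM in WT/TAC replicates 1 to 3 and at 8.21, 9.30 and 6.95 FPKM in KO/TAC replicates 1 to 3. Every WT/TAC heart was above every KO/TAC heart, the lowest being 2.16 times the highest KO/TAC heart. Means were 29.2 ± 14.5 and 8.15 ± 1.18 FPKM (SD, n = 3 each), a ratio of 3.58, with a fitted log2 difference of -1.68 (SE 0.32) and 50 genes lower on that scale. The member known for opposing hypertrophy and the profibrotic Ccn2 were thus both at lower levels in KO/TAC.

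Ccn4, the Wnt-induced member, was near the lower end of detection. It stood at 4.26, 0.73 and 0.67 FPKM in WT/TAC and at 0.23, 0.64 and 0.39 FPKM in KO/TAC, replicates 1 to 3. The groups did not overlap, but 0.67 and 0.64 FPKM are 1.05-fold apart, and the ratio of means of 4.49 (1.89 ± 2.06 against 0.42 ± 0.207 FPKM, SD, n = 3 each) came from WT/TAC replicate 1. Without that heart the ratio was 1.67 and the fitted log2 difference -0.41, against -1.07 (SE 0.55) with it.

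Ccn3, which in mice tends to act against CCN2 and is made by smooth muscle, did not follow genotype. It stood at 2.16, 0.85 and 6.16 FPKM in WT/TAC and at 1.05, 8.02 and 1.11 FPKM in KO/TAC, replicates 1 to 3. High values were found in WT/TAC replicate 3 and KO/TAC replicate 2, so the groups overlapped. The means were 3.06 ± 2.77 and 3.39 ± 4.01 FPKM (SD, n = 3 each), and the fitted log2 difference of -0.06 had an SE of 0.81, the widest in the family.

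Past the study's thresholds (in limma, a fold of 1.2 or more with an unadjusted p under 0.05) and lower in KO/TAC were 2 of the 5 members, Ccn2 and Ccn5, beside 6.14% of all genes tested. Groups that did not overlap, with KO/TAC lower, were seen in 3 of 5, beside 9.79% of all genes (18.3% in either direction). Because the members were chosen with this contrast known, nothing is read from either count.

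The family's total and its make-up were compared in each heart. FPKM is a value per length of transcript, so levels can be set beside each other between genes. The 5 members summed to 509.5, 519.4 and 286.3 FPKM in WT/TAC and to 78.4, 97.0 and 81.3 FPKM in KO/TAC, means of 438 ± 132 and 85.6 ± 10.01 FPKM (SD, n = 3 each). Ccn2 supplied 91.0%, 71.9% and 69.8% of the sum in WT/TAC and 45.5%, 39.6% and 43.6% in KO/TAC. Ccn1 supplied 3.83%, 19.0% and 20.3% in WT/TAC and 42.4%, 41.9% and 46.0% in KO/TAC, so that in the miR-27b-null hearts the 2 genes were about equal. The ratio of Ccn2 to Ccn1 was 23.7, 3.78 and 3.43 in WT/TAC, and 1.07, 0.946 and 0.949 in KO/TAC. Ccn5 supplied between 3.95% and 8.82% in WT/TAC and between 8.55% and 10.5% in KO/TAC.

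**Figure D2:**
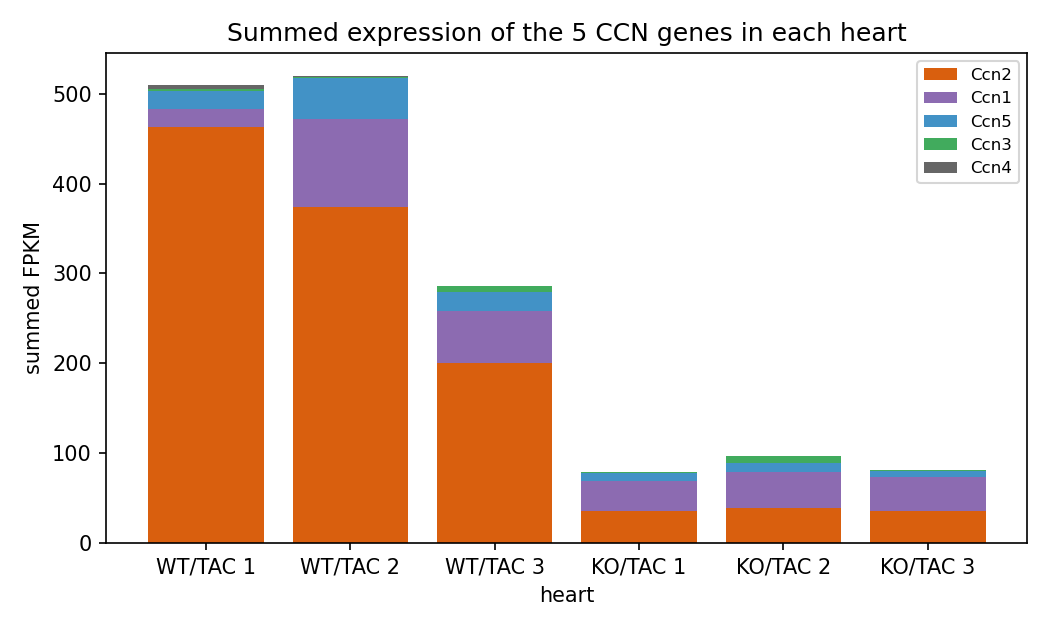
Summed FPKM of the 5 CCN genes in each heart (stacked bars from 0, with 1 colour per gene). The 3 WT/TAC bars reach 286.3 to 519.4 FPKM and are mostly Ccn2, and the 3 KO/TAC bars reach 78.4 to 97.0 FPKM with Ccn1 and Ccn2 in nearly equal parts.

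In WT/TAC the order of the mean levels was Ccn2, Ccn1, Ccn5, Ccn3, Ccn4. Ccn1 and Ccn5 overlapped, sharing the range from 20.1 to 45.8 FPKM, and so did Ccn3 and Ccn4, whereas Ccn2 lay above Ccn1 and Ccn5 above Ccn3 without overlap. In replicate 1 Ccn5 exceeded Ccn1 and Ccn4 exceeded Ccn3. In KO/TAC the order was Ccn1, Ccn2, Ccn5, Ccn3, Ccn4. There the first 2 did not differ beyond their spread, Ccn3 of replicate 2 reached the range of Ccn5, and Ccn4 was below the other members in each heart. The spread among hearts differed by member and by group. The coefficient of variation was 38.8% in WT/TAC and 4.47% in KO/TAC for Ccn2, 67.3% and 9.97% for Ccn1, and 49.6% and 14.4% for Ccn5, but 90.5% and 118% for Ccn3.

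The hearts also differed in their levels of atrial and ventricular genes. Myl7, the atrial myosin light chain, stood at 8140, 0.23 and 1135 FPKM in WT/TAC and at 0.25, 333 and 0.66 FPKM in KO/TAC, and the atrial light chain Myl4 followed it. Myl2, the ventricular light chain, was 81.0 FPKM in WT/TAC replicate 1 and between 9735 and 14329 FPKM in the other 5 hearts. Myl3, also a ventricular light chain, was 188 FPKM in WT/TAC replicate 1 and between 7011 and 8807 FPKM in the others. The library labelled as the first WT heart thus held little of the ventricular markers, and its values may not be those of a whole heart. Which tissue it held was not tested. Of 10 atrial genes 1 fell, Nppa, and of 8 ventricular genes 2 rose, Hey2 and Pln, while the atrial genes Bmp10 and Sln were at 0 in at least 1 heart. When WT/TAC replicate 2 was left out, 8 atrial genes were lower and 5 ventricular genes higher, and when KO/TAC replicate 2 was left out, 2 atrial genes were lower and 1 ventricular gene higher, as was 1 ventricular gene without KO/TAC replicate 3. The summed FPKM of 10 cardiomyocyte genes of any chamber was between 33779 and 47740 in all 6, the levels of cardiac muscle, although the labels' extraction text names granulosa cells. The deleted miR-27b itself was not analysed here, so the genotypes were not checked against it. FPKM summed to 519562 at the lowest and 553716 at the highest, with 22.0% to 26.8% of the sum in the top 20 genes of a heart.

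The relation of each member to Myl7 is given as a description over 6 hearts, since both values come from the same library and the hearts differ in genotype. Pearson's r on the log2 scale with Myl7 was 0.73 for Ccn3, 0.73 for Ccn4, 0.43 for Ccn2, 0.15 for Ccn5 and -0.45 for Ccn1. Among the 3 hearts with Myl7 under 1 FPKM, Ccn2 was 373 FPKM in the WT/TAC heart against 35.7 and 35.5 FPKM in the KO/TAC hearts, and Ccn5 was 45.8 FPKM against 8.21 and 6.95 FPKM. In the hearts with Myl7 at 1135 and 333 FPKM, Ccn2 was 199.7 FPKM in WT/TAC and 38.4 FPKM in KO/TAC, and Ccn5 was 21.5 and 9.30 FPKM. These are single WT/TAC hearts, and the part of atrial tissue in the values was not tested for any member. With log2 Myl7 as a covariate the fitted difference was -3.14 for Ccn2, -1.93 for Ccn5, -0.82 for Ccn1, 0.76 for Ccn3 and -0.64 for Ccn4. Without WT/TAC replicate 1 it was -2.89, -1.89, -1.03, -0.11 and -0.41 in the same order.

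**Figure D3:**
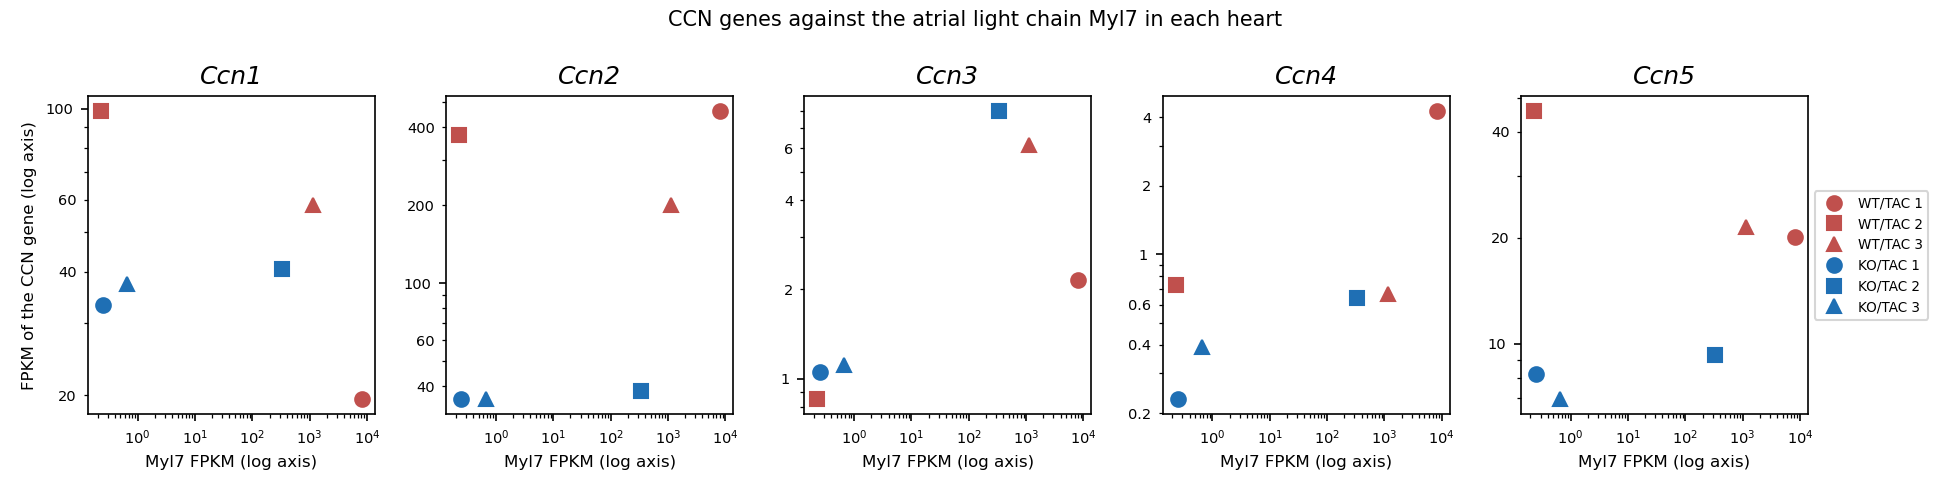
FPKM of each CCN gene against FPKM of the atrial light chain Myl7 (both log axes), with 1 panel per gene and 1 symbol per heart. Ccn4 is highest in WT/TAC replicate 1 at a Myl7 of 8140 FPKM, Ccn3 is highest in the hearts at 333 and 1135 FPKM, and the blue KO/TAC hearts are the 3 lowest for Ccn2 and Ccn5.

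The 2 hearts with high Ccn3 were high in other genes too, chosen here after their values were seen. Myh11, the smooth muscle myosin, stood at 4.79, 5.96 and 23.2 FPKM in WT/TAC and at 6.22, 19.7 and 6.22 FPKM in KO/TAC (r with Ccn3 0.90). Adipoq, the fat cell hormone adiponectin, stood at 0.31, 0 and 22.1 FPKM in WT/TAC and at 0.24, 10.2 and 0.06 FPKM in KO/TAC (r 0.95). The same hearts, WT/TAC replicate 3 and KO/TAC replicate 2, were the highest for each. Over the whole lists, the summed adipocyte genes were 44.5, 32.4 and 291 FPKM in WT/TAC and 34.8, 118 and 41.4 FPKM in KO/TAC, with 7 of them (Adipoq and Plin1 included) listed at 0 in at least 1 heart, whereas the summed smooth muscle genes were 846, 1892 and 1544 against 1156, 1151 and 1163 FPKM. The part of such tissue in the Ccn3 values was not tested. For Ccn4, the atrial and valve gene Dkk3 was highest in the same heart, at 394 FPKM in WT/TAC replicate 1 and at most 70.9 FPKM elsewhere (r with Ccn4 0.85).

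Markers of fibroblasts, a main source of CCN2 and CCN5 in injured hearts, also moved with genotype. Of 10 fibroblast markers 7 fell (Pdgfra, Tcf21, Dcn, Lum, Col1a1, Mfap5 and Pi16), with a median log2 difference of -0.75 against 0.00 over all genes tested. The sum of the 10 was 1207 to 2337 FPKM in WT/TAC and 889 to 1049 FPKM in KO/TAC. The highest sum was that of WT/TAC replicate 1, and the next was 1690 FPKM. Without that replicate 7 markers fell and the median was -0.50. Pdgfra, the platelet-derived growth factor receptor that defines these cells, fell from 10.6 ± 1.37 to 6.86 ± 0.650 FPKM (log2 -0.59, SE 0.14, limma adjusted p = 0.274). Of 10 markers of activated fibroblasts 2 fell, Comp and Meox1, against 4 without WT/TAC replicate 1 and 5 with the Myl7 covariate, and the sum was 104 to 355 against 96.7 to 128 FPKM. RNA of mixed cells cannot tell fewer cells of a type from less RNA per cell. The part of fibroblast number in the Ccn2 and Ccn5 values was not tested. Valve genes summed to 512, 62.0 and 198 FPKM in WT/TAC and to 23.3, 84.5 and 31.4 FPKM in KO/TAC with 3 of 8 lower, and mesothelial genes to 124, 6.86 and 24.2 against 3.42, 15.1 and 4.29 FPKM with 2 of 9 lower. Leaving out WT/TAC replicate 2 gave 5 valve and 8 mesothelial genes lower. Acan and Hapln1 among the valve genes, and Msln, Upk3b, Upk1b, Krt19, Lrrn4 and Muc16 among the mesothelial genes, were at 0 in at least 1 heart. In the endothelial, pericyte, smooth muscle, macrophage, adipocyte, lymphocyte and general cardiomyocyte lists the smallest unadjusted limma p was 0.0517, for the macrophage receptor gene Csf1r, and 0 genes passed. The gene-by-gene test gave 1, the macrophage gene C1qc (log2 -0.28), and 2 macrophage genes were lower when no filter was used. Leaving out WT/TAC replicate 2 gave 3 endothelial and 2 pericyte genes higher and 3 macrophage genes lower. Leaving out WT/TAC replicate 1 gave 1 endothelial, 1 pericyte and 1 cardiomyocyte gene higher and 1 pericyte and 1 smooth muscle gene lower. Of the other left-out hearts, WT/TAC replicate 3 gave 1 pericyte and 1 cardiomyocyte gene higher and KO/TAC replicate 2 gave 2 pericyte genes higher.

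Pathways known to switch CCN genes on were described from lists of genes other than the members. At the study's thresholds 1387 of 12520 genes (11.1%) passed, 769 lower (6.14%) and 618 higher (4.94%) in KO/TAC, and 2 genes (0.016%) had an adjusted p under 0.05. The number of all genes lower also moved with each left-out heart. It was 935, 1171 and 656 without WT/TAC replicates 1 to 3, and 595, 502 and 369 without KO/TAC replicates 1 to 3. The lists share some genes, such as Tgfb1, Fn1, Bgn and Ankrd1. The genes named from them by the smallest p had limma adjusted p between 0.109 and 0.438.

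TGF-β, the classical inducer of Ccn2, was represented by 22 genes for ligands, their latent carriers, receptors and SMADs, of which 12 fell and 10 did not pass (15 fell without WT/TAC replicate 1), with a median log2 difference of -0.47. Ltbp3, a carrier of latent TGF-β, fell from 24.7 ± 2.34 to 13.03 ± 2.10 FPKM (log2 -0.91, SE 0.15, limma adjusted p = 0.180). Ltbp4, of the same family, fell from 186 ± 15.9 to 112 ± 17.2 FPKM, and Lrrc32, which anchors latent TGF-β at the cell surface, from 9.18 ± 1.00 to 5.49 ± 0.41 FPKM. Tgfb1 itself fell from 25.3 ± 1.10 to 19.0 ± 2.08 FPKM (log2 -0.40, SE 0.12, limma adjusted p = 0.320). Tgfb2 was 3.18, 9.86 and 3.77 FPKM in WT/TAC and 3.70, 2.57 and 2.50 FPKM in KO/TAC and did not pass (log2 -0.69), though it did without WT/TAC replicate 1 (log2 -0.98). The SMAD inhibitors Smad7 and Skil were among the genes that fell, and so was the receptor Tgfbr2.

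Matrix genes that TGF-β induces were described next. Of 24 tested 14 fell and 10 did not pass, with a median log2 difference of -0.85. Without KO/TAC replicate 3 the number that fell was 9, and with the Myl7 covariate it was 21. Comp, cartilage oligomeric matrix protein, was 21.2, 18.6 and 20.1 FPKM in WT/TAC and 1.64, 4.48 and 0.92 FPKM in KO/TAC (log2 -3.05, SE 0.42, limma adjusted p = 0.148), a log2 difference close to that of Ccn2. Eln, elastin, fell from 49.7 ± 10.4 to 18.04 ± 1.15 FPKM (log2 -1.42, SE 0.17), and Bgn, the proteoglycan biglycan, from 394 ± 44.9 to 167 ± 26.1 FPKM (log2 -1.24, SE 0.16). Postn, a marker of activated fibroblasts, was high in a single heart, at 12.8, 114 and 16.8 FPKM in WT/TAC and 17.6, 8.80 and 12.1 FPKM in KO/TAC, and did not pass. WT/TAC replicate 2, the heart with the Postn peak, also had the highest Ccn1 and Ccn5 of the 6.

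Targets of YAP with TEAD, the other known inducer of Ccn1 and Ccn2, were mixed. Of 19 tested targets 4 fell (Lats2, Ankrd1, Ccdc80 and Ptpn14), 1 rose (Gadd45a) and 14 did not pass, with a median log2 difference of -0.22, and leaving out KO/TAC replicate 2, or replicate 3, left 1 that fell, and leaving out WT/TAC replicate 3 left 2. Ankrd1, a cardiac ankyrin repeat protein that responds to stretch, fell from 1944 ± 1057 to 910.4 ± 237 FPKM (log2 -0.99, SE 0.38, limma adjusted p = 0.409). Ccdc80, a matrix protein, fell from 69.0 ± 29.3 to 28.9 ± 3.98 FPKM (log2 -1.17, SE 0.29). Other textbook targets did not pass, such as Crim1 at log2 0.03 and F3 at log2 -0.01. Of 17 genes for the Hippo kinases, their cofactors and TEAD factors, 2 fell (1 when KO/TAC replicate 2 or replicate 3 was left out). The coactivator Yap1 was 35.5, 33.0 and 33.9 FPKM in WT/TAC and 27.1, 25.8 and 25.3 FPKM in KO/TAC (log2 -0.38, SE 0.10, limma adjusted p = 0.285), whereas its relative Wwtr1 (log2 -0.21) and Tead1 (log2 -0.14) did not pass. The other that fell was Nf2, which restrains YAP (log2 -0.31).

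Serum response factor (SRF) and its cofactor MRTF drive Ccn1 and Ccn2 when actin is polymerised. Of 22 tested genes 6 fell, 1 rose (Fhl2) and 15 did not pass, with a median of -0.33, and 3 fell without KO/TAC replicate 3. Srf fell from 60.3 ± 5.19 to 40.3 ± 5.02 FPKM (log2 -0.58, SE 0.13, limma adjusted p = 0.263), and Zyx, a focal adhesion protein, from 56.5 ± 7.18 to 32.6 ± 2.76 FPKM (log2 -0.78, SE 0.14). The contractile targets Acta2 (log2 0.18) and Tagln (log2 -0.31) did not pass, and were highest in WT/TAC replicate 3 and KO/TAC replicate 2, the hearts with high Ccn3.

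Immediate early genes, the class to which Ccn1 belongs, were mostly lower. Of 20 tested 14 fell and 6 did not pass, with a median of -0.82, yet 6 fell when WT/TAC replicate 2 was left out, and 7 when KO/TAC replicate 1 or replicate 3 was. Maff, a small transcription factor, was 12.5, 12.7 and 11.4 FPKM in WT/TAC and 6.34, 5.38 and 5.61 FPKM in KO/TAC (log2 -1.02, SE 0.12, limma adjusted p = 0.109). Egr2 fell from 4.70 ± 2.57 to 0.537 ± 0.158 FPKM (log2 -2.22, SE 0.36) and Egr3 from 4.92 ± 2.12 to 1.01 ± 0.597 FPKM (log2 -1.84, SE 0.36). In WT/TAC replicate 1, where Ccn1 was lowest of all hearts, Egr2 at 7.52 FPKM and Egr3 at 7.37 FPKM were the highest of all.

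**Figure D4:**
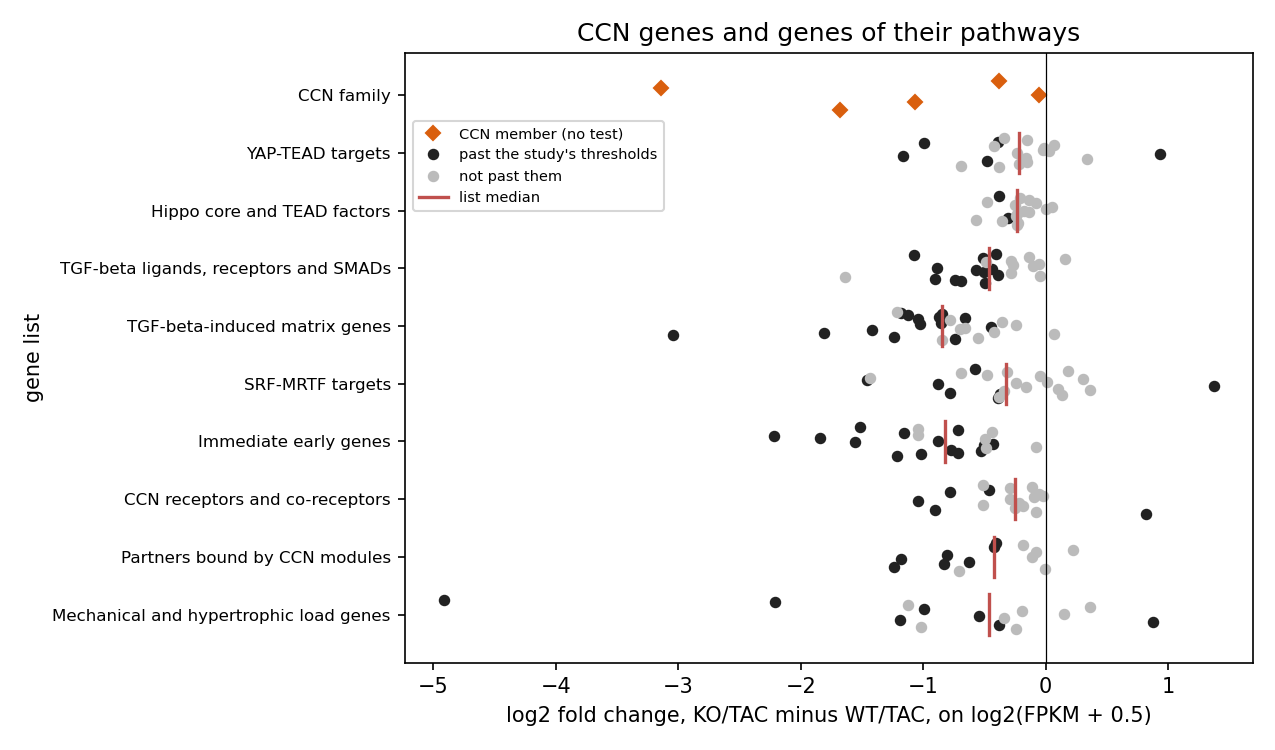
Log2 difference, KO/TAC minus WT/TAC on log2(FPKM + 0.5), of the CCN members (orange diamonds, no test) and of each gene in the pathway lists (black where past the study's thresholds, grey where not), with the red bar at the list median. Medians run from -0.22 for YAP-TEAD targets to -0.85 for TGF-β-induced matrix genes, beside 0.00 over all genes tested, and Ccn2 at -3.14 lies beyond the genes of every list but Nppa at -4.91.

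Receptors through which CCN proteins act were mostly not past the thresholds. Of 17 receptor and co-receptor genes 4 fell, 1 rose and 12 did not pass, with a median of -0.25. Itga5, the fibronectin receptor subunit, fell from 30.9 ± 2.27 to 17.8 ± 1.46 FPKM (log2 -0.78, SE 0.12, limma adjusted p = 0.166). Lrp1, an endocytic receptor that takes up CCN2, fell from 28.7 ± 4.04 to 13.8 ± 2.57 FPKM (log2 -1.04, SE 0.18, limma adjusted p = 0.196). Itgb5, the β subunit that pairs with αv, fell from 61.0 ± 4.37 to 44.2 ± 2.42 FPKM (log2 -0.46, SE 0.11), while the αv gene Itgav was 8.5 FPKM in WT/TAC replicate 1 and between 2.89 and 3.48 FPKM elsewhere and did not pass. Fgfr1 was the other that fell and Cd36, a thrombospondin and fatty acid receptor, the 1 that rose. The number that rose was 0 when WT/TAC replicate 1 or 3, or KO/TAC replicate 1 or 3, was left out. Lrp6 (log2 -0.22) and Notch1 (log2 -0.25), described as partners of CCN2 and CCN3, did not pass.

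Among 13 growth factors and matrix proteins that bind the CCN modules, 7 fell (Tgfb1, Bmp4, Igf1, Fn1, Dcn, Vcan and Bgn) and 6 did not pass, with a median of -0.42, and leaving out KO/TAC replicate 2, or replicate 3, left 3 that fell, and leaving out KO/TAC replicate 1 left 4. Bmp4 fell from 4.46 ± 0.537 to 3.18 ± 0.171 FPKM (log2 -0.42, SE 0.14, limma adjusted p = 0.359) and Fn1, fibronectin, from 22.8 ± 5.43 to 9.97 ± 3.18 FPKM (log2 -1.18, SE 0.28). Vegfa, whose protein CCN2 can hold inactive, was 80.6 ± 34.0 and 71.5 ± 11.6 FPKM and did not pass.

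Genes that follow load on the heart, such as the natriuretic peptides, formed the last list. Of 14 tested 6 fell, 1 rose (Agtr1a) and 7 did not pass, with a median of -0.46, and without WT/TAC replicate 1 the count lower was 10 and the median -1.09. Leaving out KO/TAC replicate 2, or replicate 3, left 3 that fell. Nppb, the natriuretic peptide of the stretched ventricle, was 1854, 2097 and 798 FPKM in WT/TAC and 758, 196 and 208 FPKM in KO/TAC (log2 -2.21, SE 0.60, limma adjusted p = 0.288). Nppa, which atrial muscle also makes in quantity, was 55795, 6236 and 5647 FPKM in WT/TAC and 803, 1114 and 79.4 FPKM in KO/TAC (log2 -4.91, SE 1.24). The Nppa peak was in the heart with the highest Myl7. Without that heart its log2 difference was -3.84.

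How closely the members followed each other, and which genes followed them, was measured by Pearson's r of log2 levels over the 6 hearts. As genotype separates the hearts for many genes, a high r here can reflect the group difference alone. Ccn2 and Ccn5 had the highest r within the family (0.90), Ccn2 and Ccn4 had 0.73, Ccn1 and Ccn5 had 0.56, and Ccn1 had 0.17 with Ccn2 and -0.49 with Ccn4. Ccn2 had 0.97 with Yap1, 0.93 with Srf and 0.85 with Tgfb1, but 0.58 with Tgfb2 and 0.52 with Postn. Ccn5 had 0.88 with Ankrd1 and 0.84 with Tgfb2. Ccn1 had 0.76 with Postn, which peaked in the heart with the highest Ccn1, 0.75 with Tgfb2, 0.50 with Ankrd1 and 0.42 with Fos. With the other regulators Ccn1 had 0.24 (Tgfb1), 0.10 (Yap1), 0.10 (Egr1) and 0.02 (Srf).

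The closest of 11522 genes over 6 hearts have a high r by selection, so the genes below are a description. Shared regulation was not tested for any member. Among these genes, averaging 1 FPKM or more, the 5 closest to Ccn2 were Purg, Gm42226, Fam124a, Itih5 and Skil (r from 0.987 to 0.998). Each was lower in every KO/TAC heart. Skil, a SMAD co-repressor that TGF-β itself induces, was 4.93, 4.82 and 4.33 FPKM in WT/TAC and 3.24, 2.98 and 3.26 FPKM in KO/TAC. The gene closest to Ccn1 was Hbegf, a heparin-binding ligand of the EGF receptor (r 0.987), at 4.90, 39.8 and 21.2 FPKM in WT/TAC and 12.6, 11.8 and 11.2 FPKM in KO/TAC. As for Ccn1, WT/TAC replicate 1 was the lowest heart and WT/TAC replicates 2 and 3 the highest. Next came 2810004N23Rik, Zkscan5, Wnt5b and Prnp (r from 0.978 to 0.984). Ccn5 was followed by Slc48a1, Dok1, Fam131c, Bmp4 and Filip1l (r from 0.979 to 0.990). For Ccn3 they were Kcng2, Itga8, Sfrp5, Mlxip and Zfyve27 (r from 0.972 to 0.979), and Itga8 at 2.68 and 2.65 FPKM in the hearts with high Ccn3 was at most 0.86 FPKM in the others. For Ccn4 they were Cpsf7, Txndc16, Gnptg, Slc10a6 and Golm1 (r from 0.989 to 0.992), all highest in WT/TAC replicate 1.

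Of the family's promoters only that of Ccn1 was looked at, from 250 bases before to 50 after the RefSeq start on GRCm38.p6, since it is the 1 member held by the promoter table used. Matches in it are shown with the matched letters in capitals, read along the minus strand on which the gene lies. The gene lists above were not chosen by such a search.
TEAD match, from position -103 (chr3:145650072-145650099): gcgccaaccaaCATTCCtgagatgtttg
SMAD match, 3 bases after the start (chr3:145649967-145649993): cggcgctggggCAGACcgtgagcgaga
TATA box match, from position -25 (chr3:145649994-145650021): taggcaggcatTATAAAgggcgggctcc
Both strands were searched, so GGAATG (TEAD) was found as its reverse complement and GTCTG (SMAD) likewise. Of 32851 promoters of this length, 14.7% held the TEAD letters, 49.6% the SMAD letters and 13.6% TATAAA. The AP-1 letters TGACTCA and TGAGTCA, found in 5.20% of promoters, and the CArG box of SRF, found in 1.63%, were not in the Ccn1 window. These are matches of letters in a short window and show neither binding nor its absence.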

How the data were processed

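Total heart RNA of 3 WT/TAC and 3 KO/TAC mice was sequenced from stranded libraries. The authors deposited FPKM to 2 decimals, 1 table per heart. The submitters' processing notes name HISAT2 2.0.5 and StringTie 1.3.3, and name a human and a mouse genome without a role, so the build used is not given in the sources used here. FPKM hold no counts, and depth was not estimated here, so no counting intervals are given. Of 17570 Entrez Gene IDs, 17441 had a RefSeq symbol.

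Genes averaging 0.5 FPKM or more were fitted on log2(FPKM + 0.5) in limma 3.58.1 (R 4.3.3; lmFit, eBayes with trend), two-sided, with Benjamini-Hochberg adjustment over 12520 genes. The study's thresholds, an unadjusted p under 0.05 and a fold of at least 1.2, gave 1387 genes. A log2 fold on this scale understates changes of low genes. The code was tested on simulated data. Tables and plots used Python 3.11.15, numpy 2.4.6, pandas 2.3.3 and matplotlib 3.10.9.

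The members and gene lists were chosen with earlier results of these data known. Genes were named by rule: the members, up to 3 genes per list with the smallest p past the thresholds (otherwise 2), a fixed set of regulators, receptors and chamber markers, and the 5 genes most like each member. Others named from lists (among them Postn, Acta2, Tagln, Crim1, F3, Smad7, Tgfbr2, Dkk3, Myh11 and Adipoq) were chosen after their values were seen. The labels number each heart and say nothing of how the animals were housed or processed together, so p-values measure the spread between these hearts. Alternatives varied the pseudocount, filter, scaling, test, replicate block, a Myl7 covariate and each left-out heart.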

Additional observations from a re-analysis of the deposited data

How the results depend on the processing

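No called result changed direction under any alternative. The log2 difference of Ccn2 was between -3.49 and -2.89 with 1 heart left out and that of Ccn5 between -1.89 and -1.31, and both were negative under all 18 settings. Those of Ccn1 (-1.03 to 0.13), Ccn3 (-0.87 to 0.55) and Ccn4 (-1.42 to -0.41) depended on single hearts. With the Myl7 covariate Ccn3 was at 0.76, and a pseudocount of 0.1 gave -1.51 for Ccn4. A minimum mean of 5 FPKM left no value for Ccn3 and Ccn4.

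With 1 heart left out, 631 (without KO/TAC replicate 3) to 1961 genes (without WT/TAC replicate 2) passed the study's thresholds, 369 to 1171 lower and 262 to 941 higher. Without KO/TAC replicate 2 the numbers were 898, 502 lower and 396 higher, and without KO/TAC replicate 1 366 were higher. The lists then had the following numbers lower: YAP-TEAD targets 1 to 4, Hippo genes 1 to 3, TGF-β genes 9 to 15, matrix genes 9 to 15, SRF targets 3 to 7, immediate early genes 6 to 14, receptors 4 to 5, partners 3 to 7 and load genes 3 to 10. Numbers higher were 0 to 2 for YAP-TEAD targets and 0 to 1 for SRF targets, receptors and load genes.

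Same-numbered hearts did not deviate together (correlations of -0.289, -0.565 and -0.346), so the numbers do not pair them. With the replicate number as a block, 879 genes passed, 355 of them higher, with 2 YAP-TEAD targets and 1 Hippo gene lower and 0 receptors higher. At a minimum mean of 5 FPKM 510 genes and 4 partners were lower. A gene-by-gene 2-sample test on the log2 values gave 1 YAP-TEAD target, 1 Hippo gene, 5 immediate early genes and 4 partners lower, and 0 YAP-TEAD, SRF, receptor or load genes higher. Quantile normalization gave 1 Hippo gene lower and 0 SRF or load genes higher. With the Myl7 covariate 21 matrix genes were lower, while 0 YAP-TEAD, SRF or load genes and 1 TGF-β gene were higher. Without a filter 0 SRF and 0 load genes were higher, and 0 load genes when rescaled by median ratios or fitted without a trend. The causes were not tested.

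Depth was not estimated and each group holds 3 hearts from a single experiment. The hearts had unequal levels of atrial genes, fat cell genes and smooth muscle genes such as Myh11 and Cnn1. The summed smooth muscle genes, mostly Des, did not follow Myh11. Leaving out WT/TAC replicate 1 removes only the heart most extreme in atrial genes. Values of Ccn4, all under 5 FPKM, and of Ccn3 are the least certain.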
